A study of Mus musculus with 6 samples.

Results

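The clustered histone genes were followed in RNA-seq data of adipogenic cultures with and without Nelfb, a subunit of the negative elongation factor (NELF). Which genes belong was set by gene symbol alone, without the use of a measured value, while the gene family as such was taken up with earlier results of these data known. A gene was included when its symbol was that of an H1f gene from H1f1 to H1f6, of an H2ac, H2bc, H3c or H4c gene, or an older name that starts with Hist1h, Hist2h or Hist3h. This gave 44 of the 17924 listed genes. Of these, 5 encode the linker histone H1, 9 encode H2A, 12 encode H2B, 9 encode H3 and 9 encode H4. The large cluster on chromosome 13 held 39 of them and the smaller cluster on chromosome 3 held the other 5. The GENCODE annotation (vM21, GRCm38) names 66 protein-coding genes with the older cluster names, 54 on chromosome 13, 10 on chromosome 3 and 2 on chromosome 11.

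The cultures were grown from dermal fibroblasts of newborn (P0) mice and kept for 14 days in adipocyte differentiation medium. The CTL mice carried Pdgfra-Cre with Nelfb wt/wt or Nelfb fl/wt, and the Nelfb-/- mice carried Pdgfra-Cre with Nelfb fl/fl, so that every animal had the Cre. The deletion was therefore limited to cells in which Pdgfra-Cre had been active, and a CTL culture could carry 1 floxed copy of Nelfb. Each genotype had 3 biological replicates, which gave 6 libraries, and the number of mice behind a culture is not given in the sources used here.

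The unit of level is CPM, reads per 1e+06 reads of the listed genes, and it takes no account of gene length. The libraries held 17.2 M to 29.4 M reads (M, 1e+06), and a count of 3 reads, the floor used here, was worth 0.102 to 0.175 CPM. Nelfb was measured at 17.3, 19.6 and 22.3 CPM across the CTL libraries and at 5.50, 3.90 and 5.55 CPM across the Nelfb-/- libraries (log2 fold change -1.99, SE 0.22, limma, adjusted p = 0.0050). The adipocyte markers were present in all libraries, and 10 of them summed to 24486 to 41368 CPM in CTL and 16647 to 25183 CPM in Nelfb-/- cells. Macrophage markers were also present, and 7 of 8 passed the test described below as higher in Nelfb-/- cells, with sums of 163 to 631 CPM in CTL and 1636 to 5128 CPM in Nelfb-/- cells. Libraries also differed in the level of proliferation genes, which were high in CTL replicate 3 and in Nelfb-/- replicates 2 and 3 and low in the other three libraries.

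Clustered histone genes provide most of the histone protein that is laid down on newly copied DNA. The core histones H2A, H2B, H3 and H4 form the nucleosome, and the linker histone H1 binds the DNA between nucleosomes. These genes are transcribed mainly in S phase under the coactivator NPAT. Their mRNAs are the known exception to polyadenylation in animal cells, since they end just after a conserved stem-loop that is bound by SLBP and cleaved with the help of the U7 snRNP. NELF is known to associate with the cap-binding complex and to take part in this form of 3′ end processing, and loss of NELF has been linked to histone mRNAs that carry a poly(A) tail. Some clustered histone genes also give polyadenylated transcripts in cells that have left the cell cycle. The study's methods name the library kit by a catalogue number, which is that of a stranded mRNA kit that selects poly(A) RNA, but do not state the selection itself, so that a higher level of a transcript and a larger share of it with a poly(A) tail cannot be told apart. In a culture of several cell types, more cells that express a gene and more RNA per cell cannot be told apart either.

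The stem-loop was searched in the annotated transcripts as the letters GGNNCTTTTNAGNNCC on the sense strand. It was found in 33 of the 44 genes (75.0%) and in 89 of 55450 genes of the annotation (0.161%). The sites below were chosen because they lie in genes that the results turn on and because they show all 5 forms of the stem-loop that occurred among the members. Each is given 5′ to 3′ on the strand of its gene with mm10 coordinates, and capitals mark the stem-loop.
H1f2 (chr13:23739507-23739532, plus strand): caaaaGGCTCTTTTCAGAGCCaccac
H1f4 (chr13:23621777-23621802, minus strand): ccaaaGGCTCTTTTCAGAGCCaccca
H2ac18 (chr3:96246027-96246052, plus strand): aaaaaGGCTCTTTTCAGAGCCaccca
H2bc6 (chr13:23585526-23585551, minus strand): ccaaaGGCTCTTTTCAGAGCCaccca
H3c15 (chr3:96238480-96238505, minus strand): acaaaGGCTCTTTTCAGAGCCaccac
H3c6 (chr13:23561898-23561923, minus strand): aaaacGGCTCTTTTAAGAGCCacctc
H4c8 (chr13:23531453-23531478, plus strand): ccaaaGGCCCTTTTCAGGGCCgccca
H4c9 (chr13:22040961-22040986, minus strand): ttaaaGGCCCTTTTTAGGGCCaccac
H4c11 (chr13:21735432-21735457, plus strand): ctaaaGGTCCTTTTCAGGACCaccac
H4c14 (chr3:96262934-96262959, minus strand): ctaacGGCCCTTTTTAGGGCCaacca
The form of the first 5 genes was the most common and occurred in 20 members, of H1, H2A, H2B and H3. The form of H3c6 occurred in 5 members of H2B and H3. The H4 genes had their own forms, in which the stem differs, and these were the form of H4c8 in 5 members, the form shared by H4c9 and H4c14 in 2 members and the form of H4c11 in 1 member.

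The promoters of the 5 linker histone genes are shown because H1 was the class in which every member passed the test. Of these, H1f1 and H1f5 had a mean under 10 reads in CTL. Each sequence holds the 100 bases before the RefSeq start (GRCm38.p6), 5′ to 3′ on the strand of the gene. Capitals mark the CCAAT letters, the TATAAA letters and the GC box letters GGGCGG, read on either strand.
H1f1 (chr13:23763568-23763667, plus strand): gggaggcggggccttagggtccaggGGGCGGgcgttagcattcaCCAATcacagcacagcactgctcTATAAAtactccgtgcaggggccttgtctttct
H1f2 (chr13:23738707-23738806, plus strand): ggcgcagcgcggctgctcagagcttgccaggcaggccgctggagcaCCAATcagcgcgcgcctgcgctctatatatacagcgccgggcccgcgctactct
H1f3 (chr13:23554932-23555031, plus strand): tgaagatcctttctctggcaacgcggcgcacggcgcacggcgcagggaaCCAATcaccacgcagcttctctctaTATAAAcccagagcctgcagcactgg
H1f4 (chr13:23622559-23622658, minus strand): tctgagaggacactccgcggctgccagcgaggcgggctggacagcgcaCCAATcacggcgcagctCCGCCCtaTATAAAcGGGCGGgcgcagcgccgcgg
H1f5 (chr13:21780626-21780725, minus strand): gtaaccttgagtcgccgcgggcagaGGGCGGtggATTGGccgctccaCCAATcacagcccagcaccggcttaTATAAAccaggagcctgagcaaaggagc
In the 250 bases before the start, CCAAT on either strand was found at 33 of the 39 members with a RefSeq promoter (84.6%) and at 33.8% of 32851 promoters. It was present at 5 of 5 H1, 9 of 9 H2A, 10 of 10 H2B and 6 of 7 H3 genes but at 3 of 8 H4 genes. TATAAA was found at 19 members (48.7%) and at 12.4% of all promoters, among them 4 of the 5 H1 genes, and H1f2 was the H1 gene without it. The octamer ATTTGCAT was found at 7 members (17.9%), 4 of H2A and 3 of H2B, and at 1.60% of all promoters. GGGCGG was found at 13 members (33.3%) and at 32.7% of all promoters. None of these motifs contains another, and a match describes the letters and not a bound site.

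To determine how clustered histone genes differ between CTL and Nelfb-/- cells, all listed genes were tested together. The test was limma on log2 values with a pseudocount of 1 read, for the 16252 genes whose mean reached 10 reads (0.448 CPM). A gene counted as upregulated or downregulated if its adjusted p (Benjamini-Hochberg over all genes tested) was 0.05 or less and its level changed 2-fold or more. With the pseudocount, the log2 fold change of a gene near the floor is smaller than its ratio of CPM. Of the 44 clustered histone genes, 33 were tested and 15 were upregulated in Nelfb-/- cells, whereas 7.58% of all genes tested were upregulated. None was downregulated (0 of 33, against 3.64% of all genes tested, and 0 at an unadjusted p under 0.05). Among the 33 genes, 31 had a log2 fold change above 0, against 54.6% of all genes tested, and 29 were at least 2-fold higher, against 14.0%. Their median log2 fold change was 2.21, with a range from -0.24 to 4.40, and the median of all genes tested was 0.07. However, 13 of the 33 genes tested, and 4 of the 15 upregulated genes (H1f1, H1f5, H2bc11 and H3c6), had a mean under 10 reads in CTL and reached the filter only through the Nelfb-/- libraries, so that they could hardly have been tested without being higher there, and the counts and medians over the genes tested are descriptions. Without a filter, 19 of all 44 genes were upregulated, against 7.58% of the 17924 genes, and 37 were at least 2-fold higher, against 15.8%. The 3 Nelfb-/- libraries were all higher than the 3 CTL libraries at 22 of the 33 genes tested and at 28 of all 44 genes, which is to be read beside 22.0% of the genes tested and 22.0% of the genes listed.

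The number of upregulated members depended on single libraries. It was 3 without CTL replicate 1, 4 without CTL replicate 2 and 20 without CTL replicate 3. It was 24 without Nelfb-/- replicate 1, 4 without Nelfb-/- replicate 2 and 1 without Nelfb-/- replicate 3. Without Nelfb-/- replicate 2 or 3, 23 and 25 members reached the filter and were tested, and H1f5 was the 1 upregulated member among those no longer tested. The share of all genes called upregulated moved as well, from 1.79% without Nelfb-/- replicate 3 to 10.4% without CTL replicate 3. H1f2 was the 1 gene upregulated in all 6 of these fits. H1f4 and H3c4 were upregulated in 5 of 6 and lost the call without Nelfb-/- replicate 3. H2bc6 lost it without CTL replicate 1, CTL replicate 2 or Nelfb-/- replicate 3. The remaining 11 upregulated members did not pass if any of 4 libraries was left out, which were CTL replicates 1 and 2 and Nelfb-/- replicates 2 and 3, and H2ac19 did not pass without CTL replicate 3 either.

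**Figure D1:**
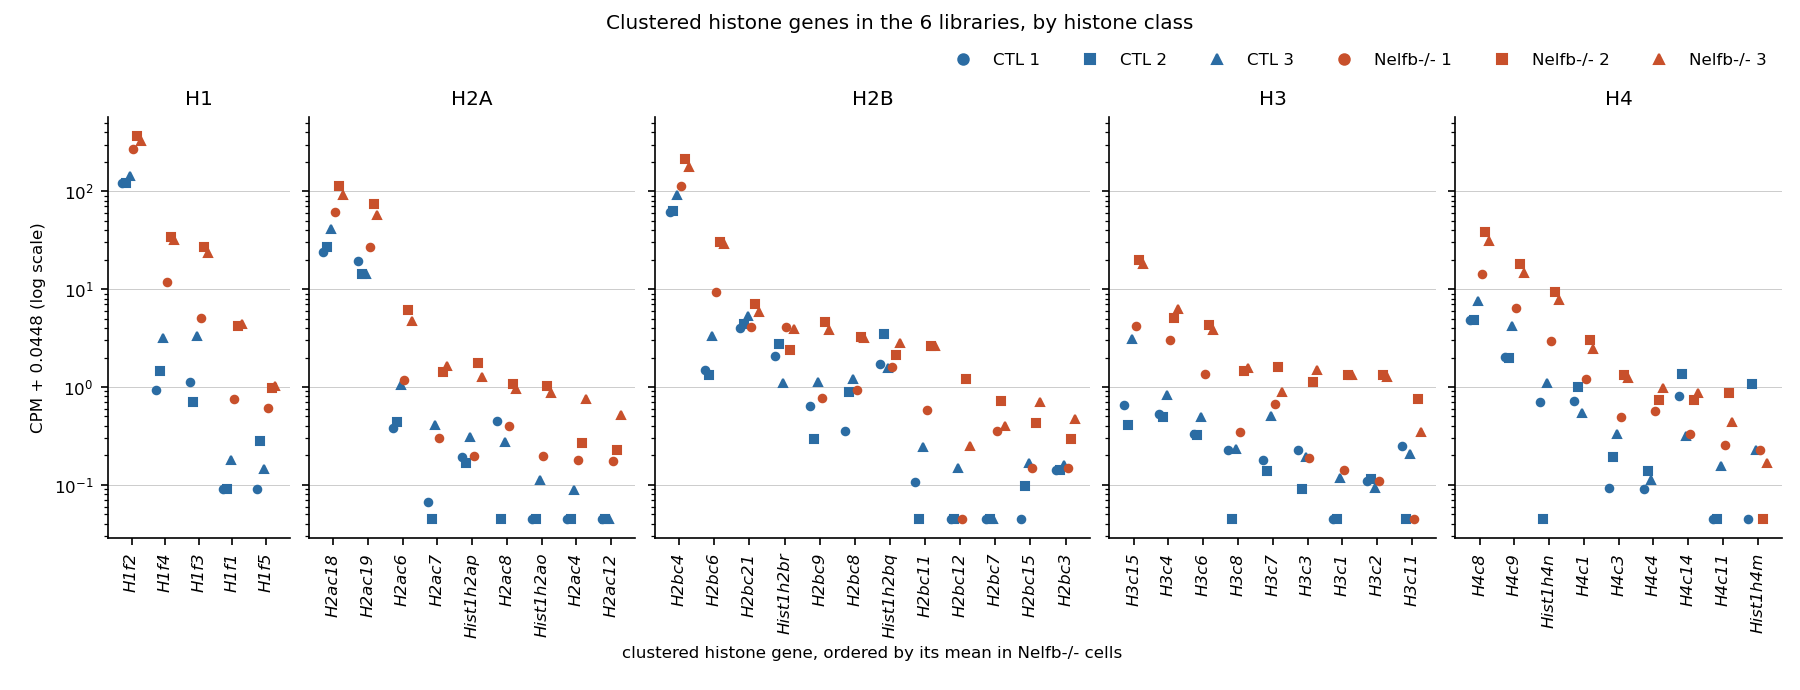
Level of each of the 44 clustered histone genes in the 6 libraries, by histone class. The vertical axis is CPM plus 0.0448 CPM, the worth of 1 read at the common depth, on a log scale, so that points on the lowest line are at or nearly at 0, and marker shapes stand for replicates 1, 2 and 3 of CTL (blue) and Nelfb-/- (red) cells. At 28 genes all red points lie above all blue points, and Nelfb-/- replicate 1 is usually the lowest red point.

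Linker histone H1 was the class in which all members were upregulated, 5 of 5 against 7.58% of all genes tested (median log2 fold change 3.42). Of the 5, H1f1 and H1f5 reached the filter only through the Nelfb-/- libraries. H1f2 (ENSMUSG00000036181, chromosome 13 from 23738808 to 23740367, plus strand), which encodes the subtype H1.2, carried most of the class. It had 123, 122 and 143 CPM across the CTL libraries and 271, 363 and 326 CPM across the Nelfb-/- libraries, so that the lowest Nelfb-/- library was well above the highest CTL library. The difference passed the test (log2 fold change 1.30, SE 0.16, limma, adjusted p = 0.0066). H1f4 (ENSMUSG00000051627, chromosome 13 from 23620629 to 23622558, minus strand), which encodes H1.4, started far lower. It had 0.880, 1.42 and 3.09 CPM across the CTL libraries and 11.7, 34.3 and 31.5 CPM across the Nelfb-/- libraries, with no overlap (log2 fold change 3.85, SE 0.58, limma, adjusted p = 0.011). Its annotated exon overlaps that of H2bc6 on the same strand, and the counting of shared reads is not stated, so that the values of these 2 genes may rest in part on the same reads. H1f3, which encodes H1.3, had 1.08, 0.654 and 3.27 CPM across the CTL libraries and 5.03, 26.7 and 23.3 CPM across the Nelfb-/- libraries. CTL replicate 3 was the highest CTL library and Nelfb-/- replicate 1 the lowest Nelfb-/- library, and the groups did not overlap (log2 fold change 3.42, SE 0.81, limma, adjusted p = 0.037).

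H1f1 and H1f5, which encode H1.1 and H1.5, were near the floor in CTL. H1f1 had 6.0 reads in the 3 CTL libraries together and rose from 0.0451, 0.0467 and 0.136 CPM to 0.711, 4.13 and 4.37 CPM (log2 fold change 4.40, SE 0.78, limma, adjusted p = 0.016). At this depth the size of the fold depends on the pseudocount, and the log2 fold change of H1f1 was 4.72 with 0.5 reads and 3.16 with 5 reads. H1f5 had 9.0 reads in the CTL libraries together, with 0.0451, 0.233 and 0.102 CPM, and 0.569, 0.931 and 0.979 CPM in Nelfb-/- cells (log2 fold change 2.46, SE 0.56, limma, adjusted p = 0.032). Neither gene shares a run of 50 bases with another annotated transcript, so that reads of at least that length match 1 annotated gene. The calls of H1f1 and H1f3 were lost if CTL replicate 1 or 2 or Nelfb-/- replicate 2 or 3 was left out. For H1f5 the same held for the CTL libraries, but it was under the filter, and so not tested, without Nelfb-/- replicate 2 or 3.

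The balance within the linker histones moved along with the level. H1f2 made up 98.4%, 98.1% and 95.6% of the summed CPM of H1 in CTL and 93.8%, 84.6% and 84.4% in Nelfb-/- cells. The other 4 genes summed to 2.05, 2.35 and 6.59 CPM across the CTL libraries and to 18.0, 66.1 and 60.2 CPM across the Nelfb-/- libraries, a ratio of means of 13.1. Nelfb-/- replicate 1 thus stood between CTL and the other 2 Nelfb-/- libraries.

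The H2A genes are dominated by H2ac18 and H2ac19 (ENSMUSG00000064220 and ENSMUSG00000063954), a pair on chromosome 3 at 96245497 to 96246082 on the plus strand and at 96239749 to 96240276 on the minus strand. All of their 50-base runs (100%) occur in other annotated transcripts, those of H2ac19 chiefly in H2ac18. The listed genes Gm20633 and Gm20634 also overlap H2ac18, Gm20634 on the same strand, so that reads may be counted for the other gene of the pair or for these. The sum of the pair was 43.4, 41.1 and 55.2 CPM across the CTL libraries and 88.6, 185 and 148 CPM across the Nelfb-/- libraries. The groups did not overlap, and the ratio of means was 3.02. Taken singly, H2ac18 (log2 fold change 1.52, SE 0.29, limma, adjusted p = 0.019) and H2ac19 (1.61, SE 0.38, limma, adjusted p = 0.035) were both upregulated, and both calls were lost if CTL replicate 1 or 2 or Nelfb-/- replicate 2 or 3 was left out. Of the 6 H2A genes tested, H2ac7, H2ac8 and Hist1h2ap reached the filter only through the Nelfb-/- libraries. H2ac18 and H2ac19 were the 2 upregulated genes of the 6, against 7.58% of all genes tested, and the median of the 6 was 1.94. The other H2A genes tested were at least 2-fold higher in Nelfb-/- cells without passing the adjusted p. Their log2 fold changes were 2.53 for H2ac6 (limma, adjusted p = 0.063), 3.07 for H2ac7 (limma, adjusted p = 0.099), 2.08 for H2ac8 (limma, adjusted p = 0.18) and 1.81 for Hist1h2ap (limma, adjusted p = 0.21). H2ac6 had 0.338, 0.391 and 1.004 CPM across the CTL libraries and 1.12, 6.07 and 4.63 CPM across the Nelfb-/- libraries, and CTL replicate 3 and Nelfb-/- replicate 1 almost met.

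Among H2B genes, 3 of 8 tested were upregulated, against 7.58% of all genes tested. The median log2 fold change of the 8 was 1.37, the lowest of the 5 classes. H2bc4 (ENSMUSG00000018102, chromosome 13 from 23684199 to 23692908, plus strand) carried most of the class, with 61.8, 63.4 and 91.3 CPM across the CTL libraries and 113, 211 and 177 CPM across the Nelfb-/- libraries. The groups lay apart by a narrow margin between CTL replicate 3 and Nelfb-/- replicate 1 (log2 fold change 1.19, SE 0.27, limma, adjusted p = 0.034). H2bc6 (ENSMUSG00000047246, chromosome 13 from 23583670 to 23621124, minus strand) had 1.44, 1.28 and 3.25 CPM across the CTL libraries and 9.32, 30.1 and 28.9 CPM across the Nelfb-/- libraries, with no overlap (log2 fold change 3.44, SE 0.57, limma, adjusted p = 0.013). H2bc11 (ENSMUSG00000069300, chromosome 13 from 22043214 to 22043676, plus strand) had 7.2 reads in the CTL libraries together and 0.542, 2.58 and 2.56 CPM in Nelfb-/- cells (log2 fold change 3.92, SE 0.87, limma, adjusted p = 0.030), and its log2 fold change was 2.60 with a pseudocount of 5 reads. The calls of H2bc4 and H2bc11 were lost if CTL replicate 1 or 2 or Nelfb-/- replicate 2 or 3 was left out. H2bc9 and H2bc8 overlapped between the groups, with log2 fold changes of 1.99 and 1.55 that did not pass the adjusted p (limma, 0.15 and 0.17).

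The other three H2B genes tested overlapped as well. H2bc21, the H2B gene of the chromosome 3 cluster, had 3.92, 4.39 and 5.27 CPM across the CTL libraries and 4.08, 6.93 and 5.79 CPM across the Nelfb-/- libraries, which overlap (log2 fold change 0.28, 95% confidence interval -0.36 to 0.93, limma, adjusted p = 0.51). It shares no 50-base run with another transcript. Hist1h2bq and Hist1h2br share 97.3% and 88.7% of their 50-base runs, chiefly with each other. Their sum was 3.70, 6.11 and 2.58 CPM across the CTL libraries and 5.64, 4.42 and 6.60 CPM across the Nelfb-/- libraries, and the groups overlapped. Unlike most members, which have a single exon, both have annotated transcripts of up to 3 exons. Their log2 fold changes were 0.00 (95% confidence interval -0.98 to 0.98) and 0.88 (95% confidence interval -0.14 to 1.90).

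The H3 genes had the lowest summed CPM of the 5 classes in CTL and the highest ratio of means between the groups. Of 8 tested, 3 were upregulated and 8 were at least 2-fold higher, against 7.58% and 14.0% of all genes tested. The median log2 fold change of the 8 was 2.85, but 6 of the 8 reached the filter only through the Nelfb-/- libraries. H3c15 (ENSMUSG00000081058, chromosome 3 from 96238108 to 96239127, minus strand) had the highest mean level of the class. It had 0.605, 0.362 and 3.05 CPM across the CTL libraries and 4.16, 19.7 and 18.2 CPM across the Nelfb-/- libraries (log2 fold change 3.62, SE 0.92, limma, adjusted p = 0.044). CTL replicate 3 came near Nelfb-/- replicate 1, and 63.5% of the 50-base runs of H3c15 also occur in other transcripts. H3c4 (ENSMUSG00000099583, chromosome 13 from 23575763 to 23577011, plus strand) was more even, with 0.479, 0.444 and 0.788 CPM across the CTL libraries and 2.97, 5.03 and 6.22 CPM across the Nelfb-/- libraries (log2 fold change 2.94, SE 0.40, limma, adjusted p = 0.0081). H3c6 (ENSMUSG00000069273, chromosome 13 from 23561534 to 23562369, minus strand) had 0.289, 0.280 and 0.444 CPM across the CTL libraries and 1.32, 4.25 and 3.75 CPM across the Nelfb-/- libraries (log2 fold change 2.90, SE 0.52, limma, adjusted p = 0.016). Both lay apart between the groups, and the calls of H3c15 and H3c6 were lost if CTL replicate 1 or 2 or Nelfb-/- replicate 2 or 3 was left out. The 5 genes that missed the adjusted p were H3c1, H3c8, H3c2, H3c3 and H3c7, with log2 fold changes of 3.35, 2.80, 2.44, 2.12 and 2.07. At H3c2 and H3c3 the Nelfb-/- replicate 1 library was within the CTL range, and replicates 2 and 3 were above it.

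Of the 6 H4 genes tested, 2 were upregulated, against 7.58% of all genes tested, and the median log2 fold change of the 6 was 2.20. H4c8 (ENSMUSG00000060981, chromosome 13 from 23531050 to 23531519, plus strand) made up about the same share of the class in all libraries, between 46.8% and 54.3%. It had 4.81, 4.83 and 7.60 CPM across the CTL libraries and 14.4, 38.6 and 30.6 CPM across the Nelfb-/- libraries, with no overlap (log2 fold change 2.19, SE 0.40, limma, adjusted p = 0.017). H4c9 (ENSMUSG00000060639, chromosome 13 from 22040636 to 22041362, minus strand) had 1.97, 1.96 and 4.17 CPM across the CTL libraries and 6.36, 18.0 and 14.6 CPM across the Nelfb-/- libraries (log2 fold change 2.21, SE 0.48, limma, adjusted p = 0.029). Its groups lay apart as well, and both calls were lost if CTL replicate 1 or 2 or Nelfb-/- replicate 2 or 3 was left out. H4c3, H4c1 and Hist1h4n were at least 2-fold higher without passing the adjusted p, with log2 fold changes of 2.35, 1.51 and 4.18 (limma, adjusted p = 0.059, 0.072 and 0.065). Hist1h4n shares 85.6% of its 50-base runs, chiefly with Hist1h4m. Where Hist1h4n stood near 0, in CTL replicate 2, Hist1h4m was at its highest (1.03 CPM), and the sum of both was 0.656, 1.03 and 1.25 CPM across the CTL libraries and 3.09, 9.23 and 7.75 CPM across the Nelfb-/- libraries. H4c14, the H4 gene on chromosome 3, did not share this pattern and had 0.767, 1.31 and 0.272 CPM across the CTL libraries and 0.284, 0.699 and 0.816 CPM across the Nelfb-/- libraries. Its groups overlapped (log2 fold change -0.24, 95% confidence interval -1.84 to 1.36, limma, adjusted p = 0.84), and 1.01% of its 50-base runs occur elsewhere.

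**Figure D2:**
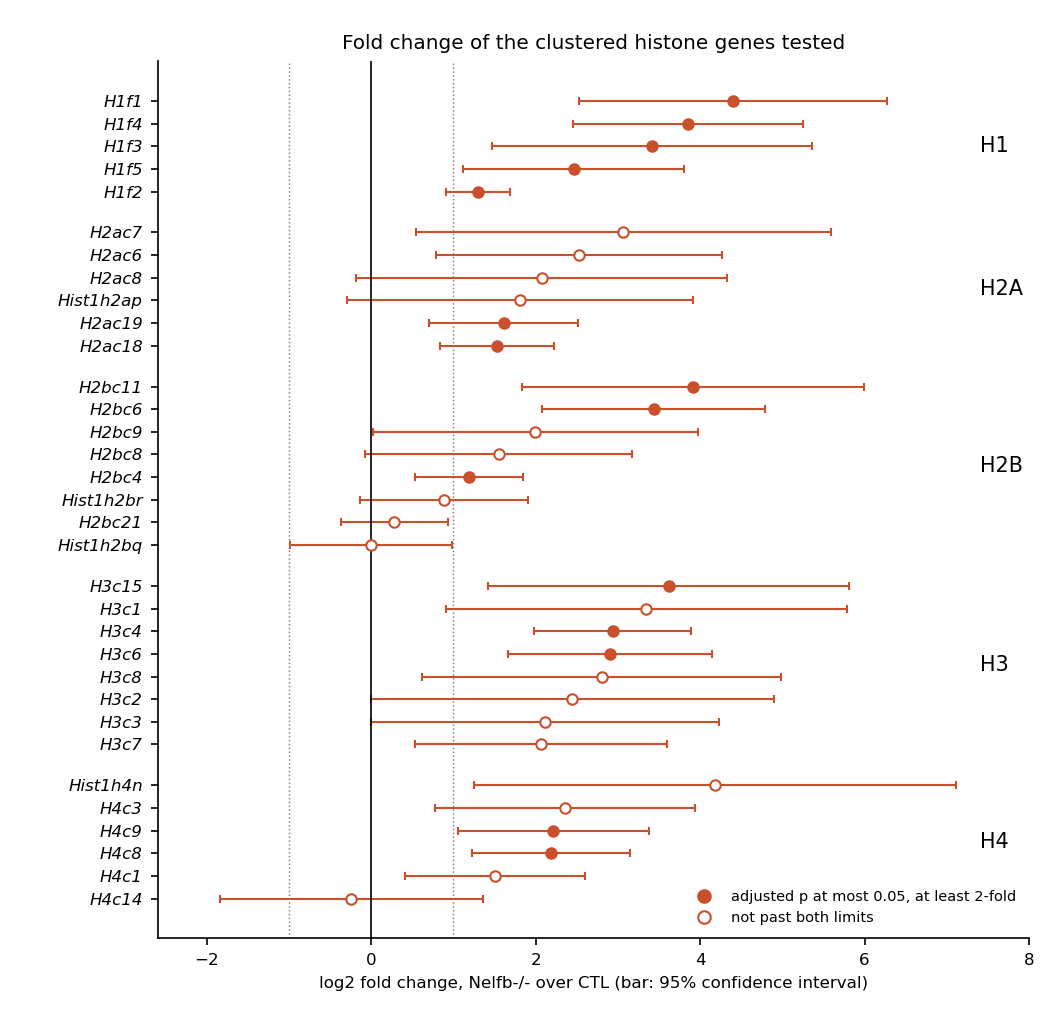
Log2 fold change of the 33 clustered histone genes tested, Nelfb-/- over CTL, by class. Points are limma estimates, bars are 95% confidence intervals, filled points passed an adjusted p of 0.05 with at least a 2-fold change, and dotted lines mark a 2-fold change. All 5 H1 points are filled, of which H1f1 and H1f5 reached the filter only through the Nelfb-/- libraries. The points at or below 0 are Hist1h2bq and H4c14.

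The 11 members that were not tested had a mean under 10 reads, and none was above 1.16 CPM in a library. They were H2ac4, H2ac12, Hist1h2ao, H2bc3, H2bc7, H2bc12, H2bc15, H3c11, H4c4, H4c11 and Hist1h4m. The groups were apart, with Nelfb-/- higher, at 6 of them, 3 of H2A, 1 of H2B and 2 of H4, which is to be read beside 22.0% of all genes listed. H2bc7 was at 0 in the CTL libraries and at 0.310, 0.674 and 0.357 CPM in Nelfb-/- cells, which is at least 3.55-fold higher than the mean floor of the CTL libraries. H4c4 had 0.0451, 0.0933 and 0.0680 CPM across the CTL libraries and 0.522, 0.699 and 0.938 CPM across the Nelfb-/- libraries. Hist1h4m was the 1 gene of the 11 with a lower mean in Nelfb-/- cells, and its groups overlapped.

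Because near-identical copies of a class can exchange reads, the CPM of all listed members of a class was also summed in each library. The sum of H1 was 125, 124 and 150 CPM across the CTL libraries and 289, 429 and 386 CPM across the Nelfb-/- libraries, a ratio of means of 2.77. H2A summed to 44.3, 41.6 and 57.2 CPM across the CTL libraries and to 90.9, 197 and 159 CPM across the Nelfb-/- libraries, a ratio of 3.12. H2B summed to 71.9, 76.4 and 105 CPM across the CTL libraries and to 135, 265 and 229 CPM across the Nelfb-/- libraries, a ratio of 2.48. In these 3 classes CTL replicate 3 was the highest CTL library and Nelfb-/- replicate 1 the lowest Nelfb-/- library. H3 summed to 2.14, 1.30 and 5.36 CPM across the CTL libraries and to 9.67, 36.3 and 34.8 CPM across the Nelfb-/- libraries, a ratio of 9.18. H4 summed to 8.98, 10.3 and 14.3 CPM across the CTL libraries and to 26.4, 72.3 and 58.7 CPM across the Nelfb-/- libraries, a ratio of 4.69. All 5 sums were apart between the groups, and the lowest Nelfb-/- library stood above the highest CTL library by a factor of 1.28 for H2B and of 1.59 to 1.93 for the other four classes. On the log2 scale the ratios of H1, H2A, H2B, H3 and H4 were 1.47, 1.64, 1.31, 3.20 and 2.23, with a spread between replicates (pooled SD of log2 sums) of 0.24, 0.44, 0.42, 1.06 and 0.59. The differences between the classes were not tested.

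**Figure D3:**
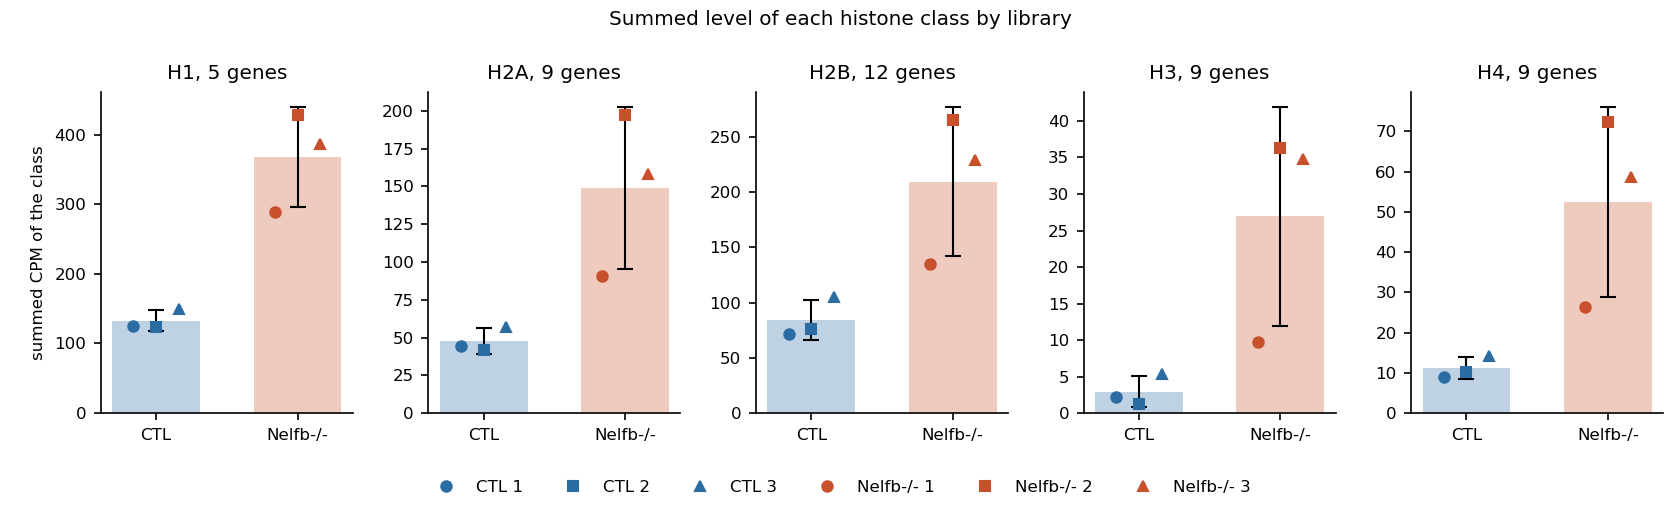
Summed CPM of all listed members of each histone class. Bars are means of 3 libraries, error bars are SD, and points are single libraries. In each class the 3 Nelfb-/- points lie above the 3 CTL points, with replicate 1 the lowest of them.

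The few abundant members were also set apart from the many rare ones. H1f2, H2bc4, H2ac18 and H2ac19, the 4 members with the highest mean CPM in CTL, were grouped after their values were seen. Per kilobase of annotated exon, the scale on which genes can be compared, they had the highest levels in CTL, with means of 82.8, 62.4, 52.2 and 30.2 CPM per kb. The next, H4c8, had 12.2 CPM per kb in CTL and 59.3 in Nelfb-/- cells, and H3c15 had 1.31 and 13.8. The 4 genes made up 90.4%, 89.2% and 87.3% of the CPM of all members in CTL and 85.8%, 75.9% and 75.0% in Nelfb-/- cells. The other 40 genes summed to 24.2, 27.5 and 42.1 CPM across the CTL libraries and to 78.2, 241 and 216 CPM across the Nelfb-/- libraries, a ratio of means of 5.71, against 2.89 for all 44 genes. The split was made by the CTL level, which also enters these ratios, and the difference between them was not tested.

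Both clusters were higher in Nelfb-/- cells. On chromosome 13, 12 of 28 genes tested were upregulated, against 7.58% of all genes tested (median log2 fold change 2.40), and the 39 listed genes summed to 203, 206 and 268 CPM across the CTL libraries and to 454, 787 and 694 CPM across the Nelfb-/- libraries. On chromosome 3, 3 of 5 genes tested were upregulated (median 1.52), and the sum was 48.7, 47.1 and 63.8 CPM across the CTL libraries and 97.1, 213 and 173 CPM across the Nelfb-/- libraries. The ratios of means were 2.85 and 3.03. The 13 genes that reached the filter only through the Nelfb-/- libraries all lie on chromosome 13 and enter its count and median. Within the chromosome 3 cluster H2ac18, H2ac19 and H3c15 rose, while H2bc21 and H4c14 overlapped between the groups.

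The annotated ends of the members differ, and the fold changes were described by the distance from the stem-loop to the annotated end. In 17 genes the annotation runs more than 100 bases past the stem-loop, in 16 it ends within 100 bases of it, and in 11 the letters were not found. Among the tested genes with a long end, 8 of 15 were upregulated, against 7.58% of all genes tested (median log2 fold change 2.35). Among those with a short end it was 4 of 10, with a median of 2.31. Among those without the letters it was 3 of 8, with a median of 1.35, and the upregulated genes were H1f1, H1f5 and H2bc4. These counts include H1f1, H1f5, H2bc11 and H3c6, which reached the filter only through the Nelfb-/- libraries. The search covered annotated transcripts, so that a gene whose annotation stops before a stem-loop counts as without the letters. The differences between these kinds of end were not tested. The distance was 840 bases for H1f2, 1153 for H1f4, 1861 for H2bc6 and 377 for H3c15, and 35 for H2ac18 and 46 for H4c8. The letters AATAAA occurred in the last 60 bases of the annotated transcript in 9 members, among them H1f2, H2bc6, H2bc21 and H4c14. The table holds 1 value per gene, so that reads before and after the stem-loop were not separated.

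Since the genes of both clusters are used in S phase, their levels were set beside genes of DNA replication. Of a list of 36 such genes (median log2 fold change 0.80), 0 were upregulated or downregulated with limma, and 3 had an unadjusted p under 0.05. Of the 36 genes, 35 had a log2 fold change above 0 and 14 were at least 2-fold higher, against 54.6% and 14.0% of all genes tested. Its sum was 294, 285 and 814 CPM across the CTL libraries and 365, 1117 and 1046 CPM across the Nelfb-/- libraries, and the groups overlapped. Pcna, the sliding clamp of DNA polymerase, had 22.6, 23.0 and 49.5 CPM across the CTL libraries and 47.2, 81.5 and 74.1 CPM across the Nelfb-/- libraries (log2 fold change 1.16, limma, adjusted p = 0.079). A list of 20 mitotic genes summed to 131, 140 and 693 CPM across the CTL libraries and to 145, 736 and 624 CPM across the Nelfb-/- libraries, with 0 of 20 past the limma test and 0 at an unadjusted p under 0.05. Mki67, a marker of cycling cells, had 29.4, 26.3 and 140 CPM across the CTL libraries and 39.6, 162 and 139 CPM across the Nelfb-/- libraries (log2 fold change 1.01, limma, adjusted p = 0.42). In the sums of these lists Nelfb-/- replicate 1 was near CTL replicates 1 and 2, and CTL replicate 3 was nearer to Nelfb-/- replicates 2 and 3. Single genes differed from the sums, and Pcna in Nelfb-/- replicate 1 (47.2 CPM) was near CTL replicate 3 (49.5 CPM). In each histone class Nelfb-/- replicate 1 was above all CTL libraries, and CTL replicate 3 was below all Nelfb-/- libraries.

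Set against the S-phase list in the same library, the groups lay apart for some classes and overlapped for others, and the difference between the classes was not tested. H3 had 0.0073, 0.0045 and 0.0066 CPM per CPM of the list in CTL and 0.026, 0.033 and 0.033 in Nelfb-/- cells. H4 had 0.031, 0.036 and 0.018 in CTL and 0.072, 0.065 and 0.056 in Nelfb-/- cells. Both lay apart between the groups. H1 had 0.424, 0.434 and 0.184 in CTL and 0.792, 0.384 and 0.369 in Nelfb-/- cells, and H2B had 0.245, 0.268 and 0.129 in CTL and 0.369, 0.237 and 0.219 in Nelfb-/- cells, and both overlapped. H2A had 0.151, 0.146 and 0.070 in CTL and 0.249, 0.176 and 0.152 in Nelfb-/- cells, where the highest CTL and the lowest Nelfb-/- value were nearly equal. For all 44 genes the ratio was 0.857, 0.889 and 0.408 in CTL and 1.51, 0.895 and 0.829 in Nelfb-/- cells, and the groups overlapped. For the 40 rarer genes, which were set apart by their CTL level after the values were seen, it was 0.082, 0.096 and 0.052 in CTL and 0.214, 0.215 and 0.207 in Nelfb-/- cells. The part of proliferation in the histone values was not tested beyond these ratios.

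**Figure D4:**
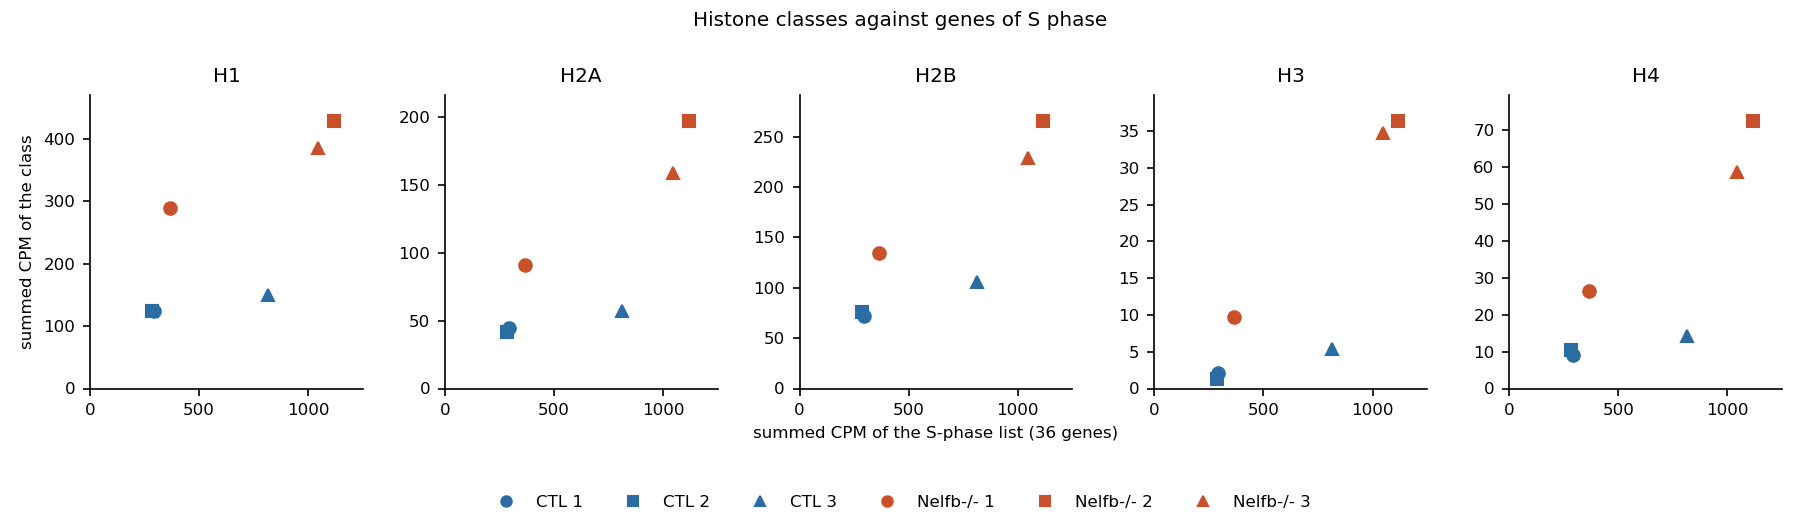
Summed CPM of each histone class against the summed CPM of 36 S-phase genes, both on linear axes from 0, with 1 point per library. Nelfb-/- replicate 1 has an S-phase sum of 365 CPM, near CTL replicates 1 and 2, and lies above them in every class, and CTL replicate 3 has 814 CPM and lies below all Nelfb-/- libraries in every class.

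Genes that act on histone mRNAs were described from lists. Of 17 genes of 3′ end processing, 1 was upregulated and 0 were downregulated (median log2 fold change 0.41), against 7.58% and 3.64% of all genes tested, and 7 had an unadjusted p under 0.05. The Nelfb-/- libraries were all higher than the CTL libraries at 6 of the 17 genes and all lower at 2, against 22.0% and 16.1% of all genes tested. The upregulated gene was Slbp, which encodes the stem-loop binding protein and is itself a gene of S phase. It had 15.4, 16.9 and 29.4 CPM across the CTL libraries and 33.5, 75.2 and 62.7 CPM across the Nelfb-/- libraries (log2 fold change 1.45, SE 0.37, limma, adjusted p = 0.046). It did not pass with median-of-ratios size factors (limma, adjusted p = 0.051) or if CTL replicate 1 or 2 or Nelfb-/- replicate 2 or 3 was left out. Lsm10 and Lsm11, the subunits particular to the U7 snRNP, lay lower in every Nelfb-/- library than in any CTL library without a 2-fold change. Lsm10 had 13.3, 16.3 and 16.2 CPM across the CTL libraries and 10.4, 8.15 and 7.18 CPM across the Nelfb-/- libraries (log2 fold change -0.84, limma, adjusted p = 0.039). Lsm11 had 11.5, 10.5 and 11.0 CPM across the CTL libraries and 5.26, 7.74 and 8.61 CPM across the Nelfb-/- libraries (log2 fold change -0.64, limma, adjusted p = 0.11). Of 9 genes of histone gene transcription, 0 passed limma in either direction and 0 had an unadjusted p under 0.05. Npat had 28.2, 25.0 and 22.2 CPM across the CTL libraries and 30.6, 28.1 and 28.2 CPM across the Nelfb-/- libraries (log2 fold change 0.21, limma, adjusted p = 0.37). With limma, 0 of 10 genes of histone mRNA decay passed (median 0.30, 3 at an unadjusted p under 0.05), and 0 of 15 genes of general cleavage and polyadenylation passed (median 0.12, 2 at an unadjusted p under 0.05). Of the 4 NELF subunits Nelfb alone passed.

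Most histone genes outside the clusters give polyadenylated mRNAs that are not tied to S phase, although the list used here also holds H2ax and Cenpa, whose expression follows the cell cycle. Of 12 such genes, 1 was upregulated, a share near the 7.58% of all genes tested, and 12 had a log2 fold change above 0, against 54.6%, with a median of 0.55. At least 2-fold higher were 3 of the 12, against 14.0% of all genes tested, and 7 had an unadjusted p under 0.05 with limma. H3f3b, which encodes the H3.3 variant, had 207, 191 and 293 CPM across the CTL libraries and 1043, 1004 and 928 CPM across the Nelfb-/- libraries. All Nelfb-/- libraries were more than 3-fold above all CTL libraries (log2 fold change 2.13, SE 0.21, limma, adjusted p = 0.0041), and the call was kept in 6 of 6 fits that left out a library. Of 19 histone chaperone genes (median 0.43), 4 were at least 2-fold higher, against 14.0% of all genes tested, and 6 had an unadjusted p under 0.05 with limma. Upregulated was 1 of the 19, against 7.58% of all genes tested. This was Nasp, a chaperone that holds soluble histones, at 15.4, 15.4 and 22.2 CPM across the CTL libraries and 29.4, 44.1 and 41.9 CPM across the Nelfb-/- libraries (log2 fold change 1.12, SE 0.23, limma, adjusted p = 0.024), and it did not pass if CTL replicate 1 or 2 or Nelfb-/- replicate 2 or 3 was left out.

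Some markers of other cell types also differed between the genotypes. Of 8 fibroblast markers 0 passed limma and 3 had an unadjusted p under 0.05. Their sum was 4968, 4319 and 16604 CPM across the CTL libraries and 8054, 30156 and 32799 CPM across the Nelfb-/- libraries, high in the same libraries as the S-phase list. The macrophage markers with the lowest adjusted p were Csf1r, Mrc1 and, with equal values, Adgre1 and Fcer1g, with log2 fold changes of 3.08, 3.07, 2.94 and 2.76. Of 4 melanocyte markers 4 were upregulated (Tyrp1, Dct, Mlana and Pmel), with sums of 1.22 to 1.43 CPM in CTL and 27.9 to 67.2 CPM in Nelfb-/- cells, and Tyrp1 and Mlana were at 0 in CTL replicates 1 and 2. Of 4 muscle markers 3 were upregulated (Acta1, Myh3 and Myog), with sums of 6.67 to 8.88 CPM and 32.2 to 71.4 CPM. Among the Nelfb-/- libraries alone, all 8 macrophage, all 4 muscle and all 4 endothelial markers but 2 of the 4 melanocyte markers (Tyrp1 and Dct) were highest in replicate 1. This was the Nelfb-/- library in which each histone class was lowest. Of 3 keratinocyte markers tested Krt14 was upregulated, with sums of 1.89 to 2.45 CPM and 3.46 to 12.8 CPM. Of 4 endothelial markers Emcn, at 0 in CTL replicate 3, was upregulated, with sums of 4.06 to 5.55 CPM and 6.23 to 15.3 CPM. Of 10 adipocyte markers 1 passed, and this was Retn, which was downregulated (limma, adjusted p = 0.013). The median log2 fold change of the 10 was -0.65, with 1 of them above 0, 4 at an unadjusted p under 0.05 and 4 lower in every Nelfb-/- library than in any CTL library, against 16.1% of all genes tested. Of the markers named here, Csf1r, Tyrp1, Dct, Acta1 and Myh3 kept the call in 6 of 6 fits that left out a library, Mrc1, Adgre1 and Fcer1g in 4, Mlana in 3, Pmel, Myog, Emcn and Retn in 2 and Krt14 in 1. The part of these cells in the histone values was not tested.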

How the data were processed

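The 6 RNA-seq libraries were analysed from 1 deposited table, in which the authors give 17924 genes in CPM with an offset of 0.0001 added to each value. Each column summed to 1e+06. The submitters' processing notes name mm10, STAR 2.7 and Partek 9.0.20.0202, and the paper's methods state that genes under 10 reads were left out. The library kit is given by a catalogue number, that of an Illumina stranded mRNA kit, whereas poly(A) selection, the use of strand in counting and the counting of shared reads are not stated in the sources used here. The lowest values gave the worth of 1 read and thereby the depth (17.2 M to 29.4 M reads). Between 72.4% and 74.9% of values up to 20 reads were whole within 0.05 reads, so that no count test was run. The depth limits the precision of genes near 3 reads, and this floor covers counting error only.

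The offset was removed, CPM were turned into reads at the same depth of 22.3 M for each library, and genes whose mean reached 10 reads were tested with limma (3.58.1, R 4.3.3; trend, log2, pseudocount of 1 read) with Benjamini-Hochberg adjustment over all genes tested. The test was checked on simulated data with independent noise for each gene. This check does not cover shifts that many genes of a library share. With 3 libraries per group, the smallest p that exact two-sided permutation allows is 0.1. P-values measure the spread between these libraries. Sums of classes, clusters and lists are descriptions. Sequences come from GENCODE vM21 transcripts, whose start and end matched 17713 of the 17924 genes, and from RefSeq promoters (GRCm38.p6), which matched 39 of 44 members.

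The gene family and the gene lists were chosen with earlier results of these data known, and the members of the family were set by symbol alone. Named are Nelfb, each clustered histone gene that passed the test, the member of each class with the highest mean, each member at least 2-fold higher that missed the adjusted p, list genes that passed (the strongest 3 where more than 6 passed), and Slbp, Npat, Lsm10, Lsm11, Pcna and Mki67. H2bc21, H4c14, Hist1h2bq, Hist1h2br, the members that were not tested, H2aw and H2bu2 were named after their values were seen. One of the lists of markers of other cell types is not reported here. Alternatives were other pseudocounts, filters and scaling, a replicate block and leaving out each library.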

Additional observations from a re-analysis of the deposited data

How the results depend on the processing

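The number of upregulated clustered histone genes was 15 with a pseudocount of 0.5 reads or with median-of-ratios size factors, 16 with a pseudocount of 5 reads and 19 without a filter or with a filter of 10 reads in any library, and the 15 genes were shared with each of these. It ran from 1 to 24 when each library was left out (between 23 and 34 members then reached the filter), and the genes called among all genes ran from 426 to 2479, against 1824. The genes called in the lists around histone mRNA were 4, ran from 2 to 14 when each library was left out, and were 9 with a replicate block and 3 with median-of-ratios size factors, under which Slbp lost its call (limma, adjusted p = 0.051). Same-numbered CTL and Nelfb-/- libraries correlated at 0.515, -0.395 and 0.518 in their deviations from the group means, so that the numbers were not taken to pair the libraries. The replicate block gave 2175 genes called and 21 upregulated members, and CTL replicate 2 correlated best with Nelfb-/- replicate 1 (0.480). The median log2 fold change of the members tested lay between 1.60 and 2.81 under all alternatives, and the 7 sums of classes and clusters moved by less than their replicate SD. Of the single members, 2 changed sign, and the cause was not tested. H4c14 ran from -0.82 to 0.23 in log2 fold change when each library was left out, with 0.23 without CTL replicate 2 and 0.19 without Nelfb-/- replicate 1. Hist1h2bq ran from -0.21 to 0.36, with 0.36 without CTL replicate 2, 0.20 without Nelfb-/- replicate 1 and 0.00039 without Nelfb-/- replicate 2. Depth limits the genes near the floor, whose fold changes depend on the pseudocount.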

Other observations

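The small histone cluster on chromosome 11 has newer symbols in the table that the selection by symbol does not take in, and its 2 genes were listed. H2aw, an H2A gene, had 9.54, 10.3 and 12.6 CPM across the CTL libraries and 21.0, 28.3 and 25.8 CPM across the Nelfb-/- libraries, with no overlap. It passed the test (log2 fold change 1.21, SE 0.19, limma, adjusted p = 0.012) but not if CTL replicate 1 or 2 or Nelfb-/- replicate 3 was left out. H2bu2, an H2B gene, had 6 reads in the CTL libraries together and 0.901, 0.873 and 0.857 CPM across the Nelfb-/- libraries (log2 fold change 3.27, SE 0.65, limma, adjusted p = 0.022). The call was kept in 1 of the 6 fits that left out a library, the one without CTL replicate 3. In this gene too the groups did not overlap.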
